A study of Mus musculus with 12 samples.

Results

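The keratin genes measured on the arrays numbered 53 of 23102 genes. The rule takes every symbol made of Krt, a number and at most 1 letter, and uses no measured value; all 53 entered the tests with no filter on dim genes. By position, 27 lay in the keratin cluster of chromosome 11 and 26 in that of chromosome 15 (RefSeq, GRCm38.p6). They were read by 426 probesets, between 3 and 12 for a gene. Krt87 had no probeset with 1 symbol and is not analysed here, and the probesets of Krt72, Krt88 and Krt90 carried older symbols.

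The 12 arrays held total RNA of 12 oral tumours of C57BL/6 × FVB F1 mice, 1 array per tumour. In 6 tumours, from mice written KR, RAS was expressed; in the other 6, from mice written KHR, RAS was expressed together with a transgene written iHPV, and a further label names HPV E6. All mice of both groups had received tamoxifen by intraperitoneal injection, so no untreated or tumour-free tissue was compared. The labels used here name no promoter behind the transgenes, no meaning of the letters and no sex, age or litter. Whether the 6 tumours are from 6 different mice is not stated, so a p-value here reflects only the scatter among these samples. Xist, the RNA of the inactive X chromosome, was between 11.04 and 12.45 on the log2 scale in 2 KR tumours (KR 4 and KR 6) and 4 KHR tumours (KHR 3 to KHR 6), and between 3.81 and 4.74 in the others, so both groups were mixed in it, and unequally.

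Keratins are the filament proteins of epithelial cells, and each filament is built from pairs of 1 acidic type I and 1 basic type II keratin. The genes of type I lie together on chromosome 11 and those of type II on chromosome 15, with Krt18 as the type I gene found among the type II genes. Which pair a cell makes follows its layer and its tissue. Krt5 and Krt14 mark the basal layer, Krt4 and Krt13 the suprabasal layers of the soft oral lining, Krt1 and Krt10 those of the epidermis and the hard oral surfaces, Krt6a, Krt16 and Krt17 wounded or fast-growing epithelium, and Krt8 and Krt18 simple epithelium. Loss of Krt13 and Krt4 is a known feature of oral squamous carcinoma.

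Of the 53 keratins, 2 passed the test, Krt13 and Krt24, and both were lower in KHR tumours. That is 3.77% of the keratins, beside 3.74% of all genes called in either direction (limma, adjusted p under 0.05 over all genes), so keratins as a family were called about as often as any gene. The 2 called lower compare with 1.03% of all genes called lower, and none was called higher, beside 2.71% of all genes; at an unadjusted p under 0.05, 2 keratins were higher and 7 lower, beside 9.64% and 6.21% of all genes (15.9% in either direction). The median change of the 53 was -0.01 on the log2 scale (KHR minus KR, as are all changes here), beside 0.00 for all genes, with 25 above 0 and 28 below. When probesets were averaged or median-polished 4 keratins were called (Krt78 and Krt79 besides), beside 6.25% and 5.31% of all genes. The values of the groups overlapped for all 53, while 2.67% of all genes had no overlap.

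**Figure D1:**
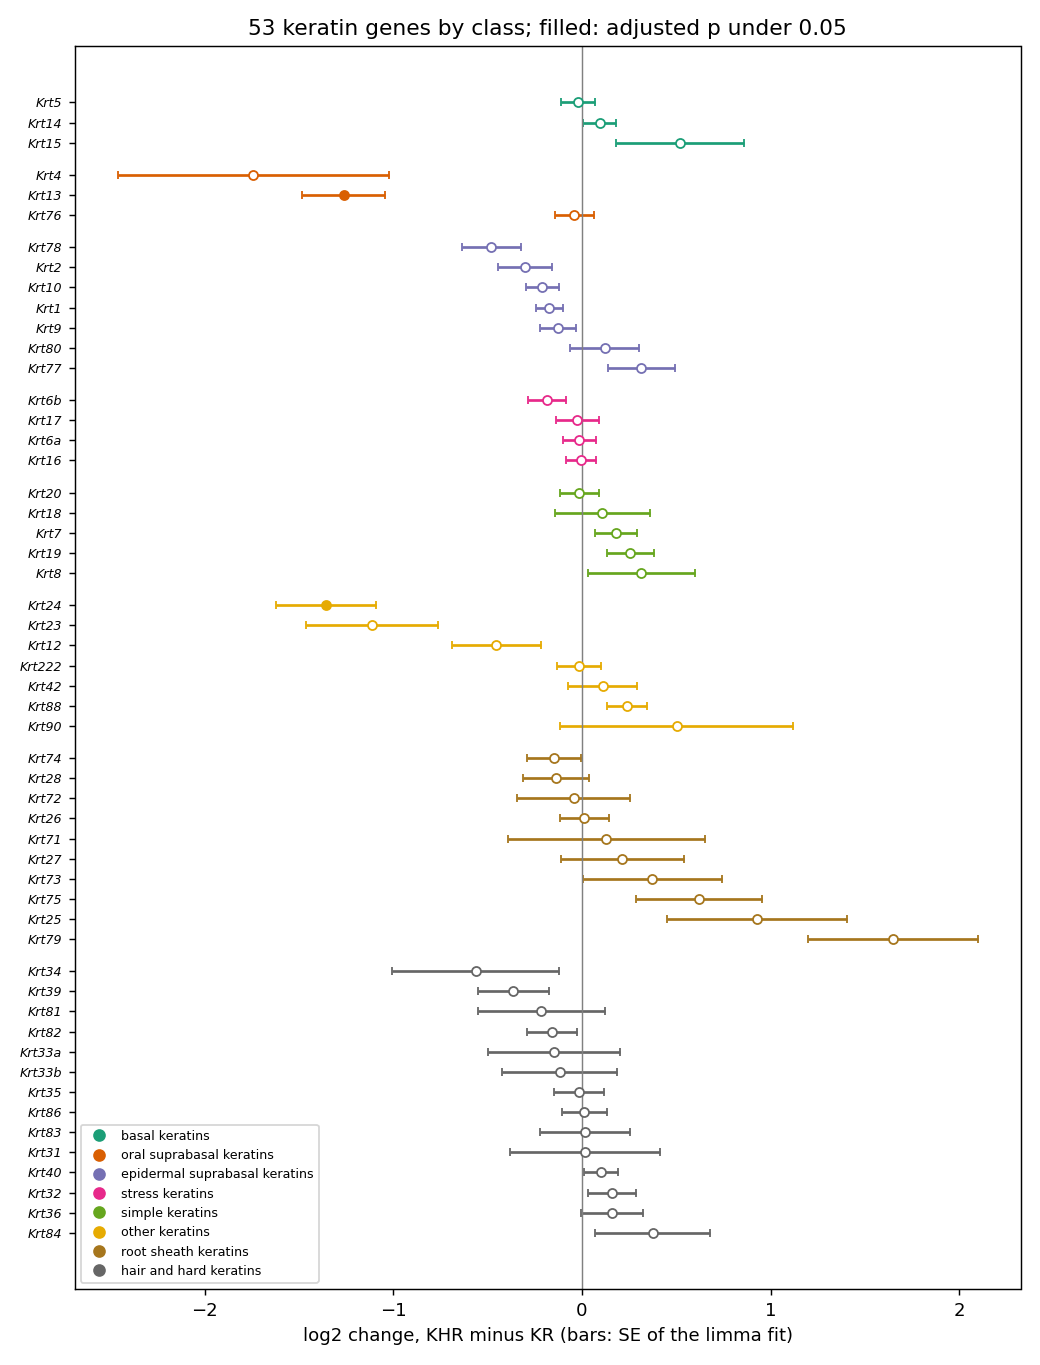
The horizontal axis gives the log2 change, KHR minus KR, of the 53 keratin genes, grouped by class on the vertical axis; points are the estimates, bars the SE of the limma fit over 6 and 6 arrays, and filled points have an adjusted p under 0.05. Krt13 at -1.26 and Krt24 at -1.36 are the filled points, Krt4 at -1.74 and Krt79 at 1.65 lie farther out with wide bars, and the stress keratins sit at 0 or just below it.

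The 5 keratins with a change beyond 1 on the log2 scale were Krt4, Krt79, Krt24, Krt13 and Krt23. For 4 of them the RefSeq promoter table held an entry, and the 250 bases before the start site are shown because these are the members that differed most, 3 towards lower and 1 towards higher values. Capitals mark matches on either strand to TATAAA, to its variant CATAAA, to TGANTCA and to CCACCC (the core of the motif bound by Klf factors). TGANTCA is looser than the AP-1 motif, which has C or G in the middle, and takes any base there. The motifs were picked with the results known. The intervals, all on the minus strand of GRCm38.p6, are chr11:100121567-100121816 for Krt13, chr11:99285263-99285512 for Krt24, chr11:99493121-99493370 for Krt23 and chr15:101940325-101940574 for Krt79.
Krt13: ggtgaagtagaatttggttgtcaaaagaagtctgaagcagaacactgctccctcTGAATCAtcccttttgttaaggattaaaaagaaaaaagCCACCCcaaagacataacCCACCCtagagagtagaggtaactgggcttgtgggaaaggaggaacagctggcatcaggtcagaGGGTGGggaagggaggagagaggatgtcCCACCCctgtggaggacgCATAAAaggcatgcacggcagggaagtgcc
Krt24: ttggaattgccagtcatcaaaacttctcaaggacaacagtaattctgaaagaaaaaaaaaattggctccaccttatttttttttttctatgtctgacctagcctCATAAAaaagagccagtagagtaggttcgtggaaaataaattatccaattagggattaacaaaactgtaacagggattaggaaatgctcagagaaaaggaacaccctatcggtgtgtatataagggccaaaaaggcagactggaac
Krt23: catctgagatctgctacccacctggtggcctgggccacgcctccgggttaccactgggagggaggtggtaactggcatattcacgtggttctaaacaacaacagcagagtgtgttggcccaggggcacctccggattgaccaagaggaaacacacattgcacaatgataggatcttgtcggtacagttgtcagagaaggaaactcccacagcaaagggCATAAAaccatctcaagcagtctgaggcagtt
Krt79: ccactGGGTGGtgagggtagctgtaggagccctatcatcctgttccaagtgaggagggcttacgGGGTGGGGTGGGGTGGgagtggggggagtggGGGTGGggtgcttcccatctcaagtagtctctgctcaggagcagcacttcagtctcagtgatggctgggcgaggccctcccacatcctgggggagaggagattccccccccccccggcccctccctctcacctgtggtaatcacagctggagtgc
A CATAAA lay 30 bases before the start of Krt13 and 32 bases before that of Krt23, the usual place of a TATA box, and 146 bases before that of Krt24. Only exact matches were marked. The printed bases of Krt24 also hold tatataag, much nearer its start, a TATA-like run that neither TATAAA nor CATAAA catches. Krt13 also held 1 TGANTCA, with A in the middle, 196 bases before its start, and 4 CCACCC. Krt79 held 5 CCACCC, of which 3 overlap, and none of the others. Among 37 promoters of 36 keratin genes in the same table, 43.2% held CATAAA in these 250 bases and 45.9% held TATAAA, beside 10.8% and 12.4% of 32851 promoters of all genes. TGANTCA stood in 5.41% of the keratin promoters and 6.75% of all, and CCACCC in 35.1% and 28.1%. A match describes these letters and does not show that a factor binds there.

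Krt13, the type I keratin of the suprabasal oral lining, fell in KHR tumours. Its log2 values were 12.27, 12.85 and 13.02 in KR tumours and 10.95, 11.35 and 12.27 in KHR tumours (lowest, median and highest of 6). The groups met only at their edges, where KR 3, the lowest of its group, stood level with KHR 3, the highest of its group. The KR mean of 12.78 ± 0.27 and the KHR mean of 11.52 ± 0.54 (SD, n = 6 each) differ by -1.26 ± 0.22 on the log2 scale (SE; adjusted p = 0.00571, limma), or 2.4-fold lower. All 9 probesets of Krt13 were lower and 6 of them passed on their own, beside 1.02% of all probesets. Probesets of 1 gene, here and below, read the same RNA and are not separate evidence.

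Krt4, the type II partner of Krt13, differed more on average, but its tumours did not keep to their groups. Its values were 9.05, 11.99 and 12.32 in KR tumours and 8.05, 9.56 and 11.92 in KHR tumours (lowest, median and highest of 6). In KR tumours 5 of 6 lay between 11.93 and 12.32, with KR 3 far below them; in KHR tumours KHR 3 and KHR 4, at 11.92 and 11.63, stood near the KR level and the other 4 between 8.05 and 9.77. The means were 11.57 ± 1.25 and 9.83 ± 1.64 (SD, n = 6 each), and the change of -1.74 ± 0.72 (SE) did not pass (adjusted p = 0.240, limma; 95% interval -3.29 to -0.20). It did not pass in any of 12 fits without 1 array, with changes from -2.25 (without KR 3, adjusted p = 0.0798) to -1.39 (without KHR 1). All 9 of its probesets were lower, but they read the same RNA and are not separate evidence.

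Krt76, the third keratin of this class, known from the hard palate and other masticatory surfaces, had a KR mean of 4.22 ± 0.16 and a KHR mean of 4.18 ± 0.18 (SD, n = 6 each). Both were under 4.98, the median over all genes, and the difference of -0.04 ± 0.10 (SE) did not pass (adjusted p = 0.914, limma). The arrays have no detection call, so a level this low may be background, although 1 of its 9 probesets stood at 6.55 in KR tumours. The class as a whole thus held 1 member that fell, 1 with a wide spread and 1 at the dim end of the scale.

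**Figure D2:**
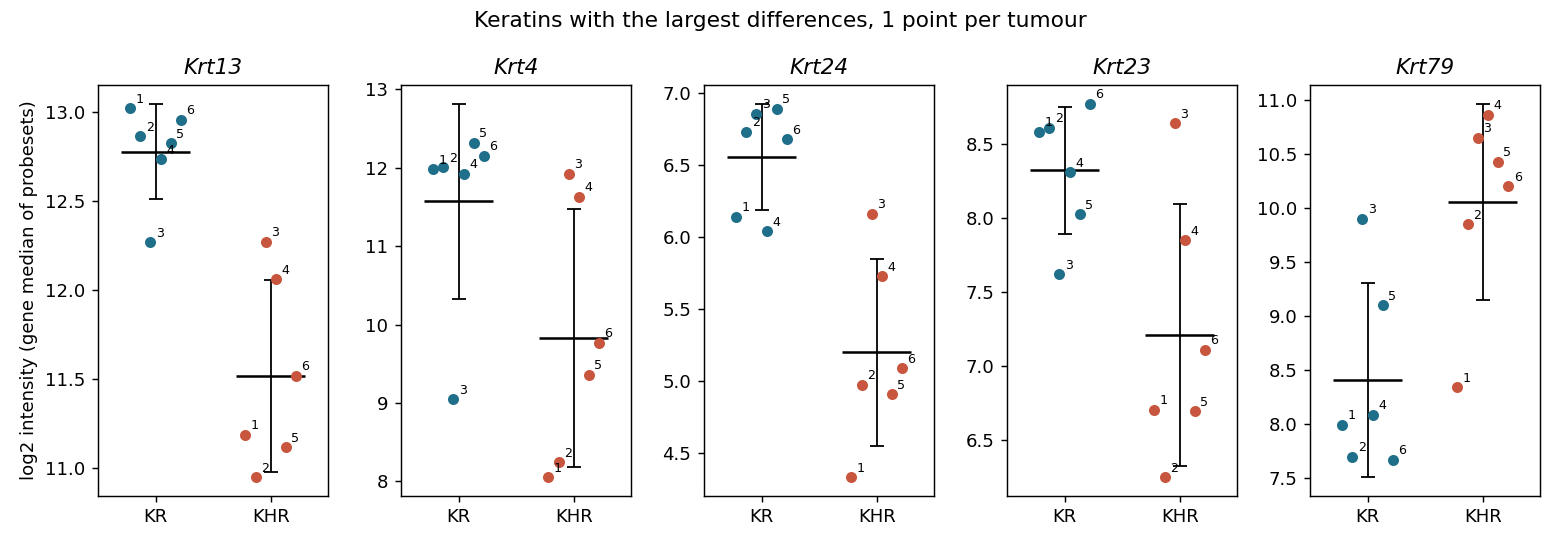
Each panel plots the log2 intensity of 1 keratin (vertical axis, its own range in each panel) in the 6 KR and 6 KHR tumours; points carry the tumour's number, the long line is the group mean and the bar its SD. KHR 3 and KHR 4 are the 2 highest KHR tumours for Krt13, Krt4, Krt24 and Krt23, and KR 3 is the lowest KR tumour for Krt13, Krt4 and Krt23.

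In KHR tumours, Krt24 and Krt23 shared with Krt13 and Krt4 that KHR 3 and KHR 4 were highest, while in KR tumours KR 3 was among the highest for Krt24 and the lowest for Krt23. Krt24, a type I keratin of differentiating epithelium, had values of 6.04, 6.71 and 6.89 in KR and 4.34, 5.03 and 6.16 in KHR tumours (lowest, median and highest of 6). Only KHR 3 reached the KR range. The mean fell from 6.56 ± 0.37 to 5.20 ± 0.65 (SD, n = 6 each), a difference of -1.36 ± 0.27 (SE, adjusted p = 0.0121, limma). All 10 of its probesets were lower and 4 of them were called, beside 1.02% of all probesets.

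Krt23, a type I keratin first described in pancreatic cells, had values of 7.62, 8.45 and 8.78 in KR and 6.25, 6.91 and 8.64 in KHR tumours (lowest, median and highest of 6). KHR 3 lay among the KR tumours and KHR 4 at 7.85 inside their range, while the other 4 KHR tumours were below all KR tumours. The means were 8.32 ± 0.43 and 7.21 ± 0.89 (SD, n = 6 each). The change of -1.11 ± 0.35 (SE) missed the threshold (adjusted p = 0.105, limma; 95% interval -1.86 to -0.37) and passed only without KHR 3 (-1.40, adjusted p = 0.0169; up to 0.198 without others).

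The keratins next to those that fell did not pass the test. Among the measured keratins, the neighbours of Krt13 on chromosome 11 are Krt36 and Krt15, which differed by 0.16 ± 0.17 and 0.52 ± 0.34 (SE; adjusted p = 0.720 and 0.514, limma). Those of Krt24 are Krt222 and Krt25, at -0.02 ± 0.12 and 0.93 ± 0.48 (adjusted p = 0.972 and 0.378). On chromosome 15, Krt4 lies between Krt76 and Krt79, and Krt79 between Krt4 and Krt78, and none of these 4 passed.

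Krt79, a type II keratin of the hair follicle funnel and of gland ducts, was the keratin with the largest difference upwards. Its values were 7.67, 8.04 and 9.90 in KR and 8.34, 10.31 and 10.86 in KHR tumours (lowest, median and highest of 6). KR 3 stood among the KHR tumours and KHR 1 among the KR tumours, and the other 10 tumours did not overlap by group. The means were 8.41 ± 0.90 and 10.05 ± 0.91 (SD, n = 6 each), and all 11 probesets were higher. The change of 1.65 ± 0.45 (SE) just missed the threshold (adjusted p = 0.0609, limma; 95% interval 0.68 to 2.61). It passed without KR 3 (1.95, adjusted p = 0.0216) or without KHR 1 (1.99, adjusted p = 0.00853), and in 6 of 13 other fits, among them the one that averages probesets (adjusted p = 0.0270).

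Within each group, 7 pairs of a type II and a type I keratin known to share filaments were compared over the 6 tumours, 14 relations in all. Krt4 and Krt13 had the highest correlation of the 14, in the KHR tumours, with Pearson r = 0.954 (exact permutation p = 0.0167, adjusted p = 0.0875) and Spearman rho = 0.829 (exact permutation p = 0.0583, adjusted p = 0.350). Without KHR 3 and KHR 4, the 2 arrays farthest from the median of Krt4, r was 0.687 over 4 arrays, so the relation rests in part on those tumours. In KR tumours r was 0.924 (exact permutation p = 0.169, adjusted p = 0.297) and rho 0.486 (exact permutation p = 0.356, adjusted p = 0.498), and r dropped to 0.541 over 4 arrays without KR 3 and KR 5.

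Krt5 and Krt14, the basal pair, had r = 0.951 in KHR tumours (exact permutation p = 0.0222, adjusted p = 0.0875), with rho = 0.771 (exact permutation p = 0.103, adjusted p = 0.350) and r = 0.960 without KHR 1 and KHR 2. In KR tumours their r was 0.612 (exact permutation p = 0.203, adjusted p = 0.315) and rho 0.714 (exact permutation p = 0.136, adjusted p = 0.350), and r was 0.954 without KR 2 and KR 4. Krt1 and Krt10, the epidermal pair, had r = 0.805 in KHR tumours (exact permutation p = 0.0250, adjusted p = 0.0875), rho = 0.657 (exact permutation p = 0.175, adjusted p = 0.350) and r = 0.570 without KHR 2 and KHR 6. Their r of 0.643 in KR tumours (exact permutation p = 0.161, adjusted p = 0.297; rho = 0.200, exact permutation p = 0.714, adjusted p = 0.769) turned to -0.652 without KR 1 and KR 4. None of the 14 relations passed after adjustment.

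Krt6a and Krt17 had r = -0.869 in KR tumours (exact permutation p = 0.0222, adjusted p = 0.0875; rho = -0.771, exact permutation p = 0.103, adjusted p = 0.350) and r = -0.833 without KR 2 and KR 6. With the mean over probesets that r became 0.445, so even its sign depended on the summary. The other 7 relations, of Krt6a with Krt16 and with Krt17 (KHR), Krt8 with Krt18 and Krt7 with Krt19, had r between -0.625 and 0.732 and exact permutation p-values from 0.133 up. Genes of 1 array share its overall brightness, and 6 tumours a group are few for such a measure.

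**Figure D3:**
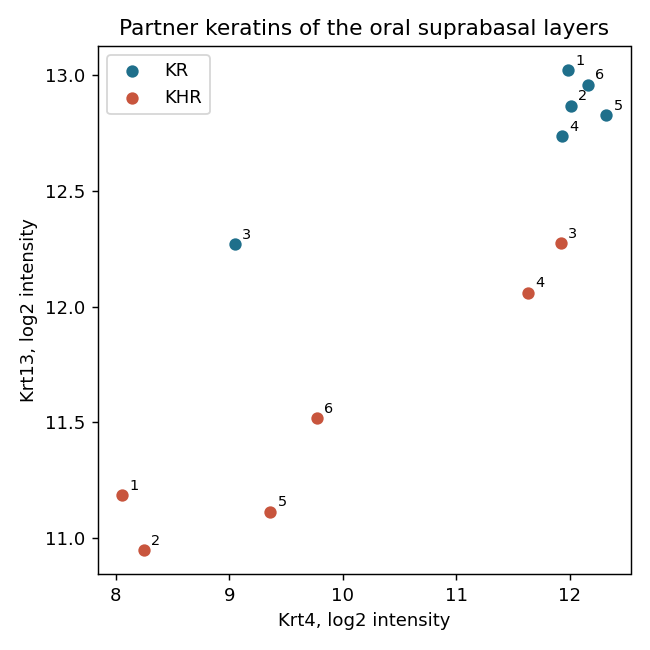
The log2 intensity of Krt4 (horizontal axis) is plotted against that of Krt13 (vertical axis), with 1 numbered point per tumour and colours for KR and KHR. KR 3 lies low for both among the KR tumours, at 9.05 and 12.27, and KHR 3 and KHR 4 lie high for both among the KHR tumours.

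Basal keratins did not differ between the groups beyond their spread. Krt5 stood at 13.19 ± 0.12 and 13.17 ± 0.14 and Krt14 at 12.98 ± 0.06 and 13.08 ± 0.17 in KR and KHR tumours (SD, n = 6 each). The 95% intervals of their differences ran from -0.21 to 0.17 for Krt5 and from -0.09 to 0.28 for Krt14 (adjusted p = 0.957 and 0.681, limma), and cover the median of mostly bright probesets. Krt15, found in resting basal cells and in the follicle bulge, varied far more, from 5.23 to 7.11 in KR and from 5.70 to 7.78 in KHR tumours. Its difference of 0.52 ± 0.34 (SE) did not pass (adjusted p = 0.514, limma), with 7 of 8 probesets higher.

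The epidermal keratins had no member past the threshold among 7, though 3 were lower at an unadjusted p under 0.05. Krt1 went from 13.15 ± 0.09 to 12.98 ± 0.05 and Krt10 from 13.54 ± 0.11 to 13.33 ± 0.13 (SD, n = 6 each), differences of -0.17 ± 0.07 and -0.21 ± 0.09 (SE; adjusted p = 0.254 and 0.240, limma). The groups overlapped narrowly for Krt1, where the lowest KR value was 13.03 and the highest KHR value 13.04. Krt78, a type II keratin of the upper layers of tongue and epidermis, stood at 9.69 ± 0.24 and 9.21 ± 0.34, a difference of -0.48 ± 0.16 (SE; adjusted p = 0.124, limma) with 10 of 11 probesets lower. It passed with 2 other summaries of its probesets, the mean (-0.62, adjusted p = 0.00410) and median polish (-0.64, adjusted p = 0.00680), and with the squamous marker mean as a covariate (-0.60, adjusted p = 0.0281).

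Krt80, a keratin of desmosome margins, stood at 10.35 ± 0.30 and 10.47 ± 0.39, with a difference of 0.12 ± 0.18 (SE; adjusted p = 0.825, limma). Krt2, Krt9 and Krt77, known from the upper epidermis, the footpad and the sweat ducts, had means between 3.66 and 4.29 in both groups, below the median level of all genes. Their differences of -0.30 ± 0.14, -0.13 ± 0.09 and 0.31 ± 0.18 (SE; adjusted p = 0.324, 0.576 and 0.438, limma) are of these medians. Single probesets were brighter, up to 7.23 in KR tumours for Krt2 and 7.51 for Krt77, where they differed by -0.66 ± 0.22 and -0.43 ± 0.27 (adjusted p = 0.188 and 0.532 over all probesets), while none of Krt9 was above 4.62 in KR tumours. Krt1 and Krt10 were thus bright in every tumour, while the gene value of Krt2 was below 4.98 in every tumour.

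None of the 4 stress keratins, all bright in the 12 tumours, passed the test. Krt6a stood at 13.73 ± 0.09 and 13.71 ± 0.15, Krt16 at 13.57 ± 0.06 and 13.57 ± 0.13, and Krt17 at 12.92 ± 0.13 and 12.89 ± 0.24 in KR and KHR tumours (SD, n = 6 each). Their differences were -0.01 ± 0.09, -0.00 ± 0.08 and -0.02 ± 0.11 (SE; adjusted p = 0.967, 0.992 and 0.957, limma), and their 95% intervals together ran from -0.27 to 0.22. Krt6b differed by -0.18 ± 0.10 (adjusted p = 0.417), with KHR 2 low at 13.00. Krt6a and Krt6b are near-identical in sequence and each rests on 3 probesets, so signal may be split between them; the same caution holds for Krt14, Krt16, Krt17 and Krt42 and for the hair keratin copies.

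The gene values of simple keratins were dim in nearly all tumours. Krt7, Krt8, Krt19 and Krt20 had means below the median level of all genes in both groups, from 3.73 to 4.64, and Krt18 stood at 4.96 ± 0.27 and 5.07 ± 0.65 (SD, n = 6 each). Single probesets were brighter, up to 6.77 in KR tumours for Krt18 and 6.74 for Krt8. That probeset of Krt8 fell by 1.62 ± 0.44 (SE, adjusted p = 0.108 over all probesets, limma), while 8 of its 9 probesets were higher and its gene value differed by 0.31 ± 0.29. Single KHR tumours stood out, KHR 4 for Krt8 at 6.04 and Krt19 at 5.05, and KHR 3 for Krt18 at 6.29. So the tumour with the highest Krt8 was not the one with the highest Krt18, its usual partner. No member passed among 5 (smallest adjusted p = 0.346, limma, for Krt19 at 0.26 ± 0.13), and none had an unadjusted p under 0.05. Markers of glands, taste buds and Merkel cells, which also carry simple keratins, were mostly dim as well. Under the median over all genes were 9 of 11 salivary, 7 of 7 taste bud and 5 of 6 Merkel cell markers. Their array means ran from 3.73 to 4.87, but the brightest salivary marker stood at 8.40 and the brightest Merkel cell marker at 6.54. Among all these markers, Piezo2, the touch channel of Merkel cells, was called higher in KHR tumours.

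Among the remaining keratins outside these classes, Krt90 ranged from 4.35 to 7.003 in KR and from 4.60 to 8.42 in KHR tumours, with KR 4 and KHR 3 the highest. Its difference of 0.50 ± 0.62 (SE) did not pass (adjusted p = 0.777, limma) and ran from -0.01 to 0.83 without 1 array. All 9 of its probesets were higher, but they read the same RNA and are not separate evidence. Krt12, the keratin of the cornea, stood at 5.73 ± 0.39 and 5.27 ± 0.52 (adjusted p = 0.381), and Krt42, Krt88 and Krt222 had means below 4.98 in both groups. Krt12, Krt42, Krt88 and Krt222 are named beyond the rule for named genes.

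Hair keratins varied between tumours of the same group more than between the groups. Of 14 hair and hard keratins and 10 of the root sheath, none passed (smallest adjusted p = 0.0609, limma, for Krt79), and Krt79 alone had an unadjusted p under 0.05. Krt34, of the hair cortex, ranged from 5.76 to 7.89 in KR and from 5.20 to 8.09 in KHR tumours, with a difference of -0.56 ± 0.44 (SE; adjusted p = 0.606). Krt25 and Krt75, of the inner root sheath and the companion layer, differed by 0.93 ± 0.48 and 0.62 ± 0.33 (SE; adjusted p = 0.378 and 0.404). No single probeset of Krt25 rose by more than 0.74, its brightest changed by 0.05, and its gene change went down to 0.18 in other fits. Of Krt75, 8 of 9 probesets were higher, and the brightest rose by 1.15 ± 0.29 (adjusted p = 0.0860 over all probesets, limma).

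Without Krt79, 23 of these keratins remained, and the same few tumours tended to be highest. KHR 2 was the highest KHR tumour for 15 of the 23, KR 5 and KR 3 the highest KR tumours for 8 and 7, and KR 2 the lowest KR tumour for 13. Krt71, of the inner root sheath and named beyond the rule, shows the spread: it ran from 5.18 in KR 2 to 8.92 in KR 5, and from 6.66 in KHR 1 to 8.82 in KHR 2. The mean of 12 hair follicle markers that are not keratins was highest in KHR 2 and KR 5 as well, at 6.26 and 6.16, and lowest in KR 2 at 5.23; the part of hair follicles in the keratin values was not tested. Of these 12, Tchh was called higher in KHR tumours and none lower, and 5 were under the median over all genes (Msx2, Hoxc13, Lef1, Dsg4 and Padi3).

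**Figure D4:**
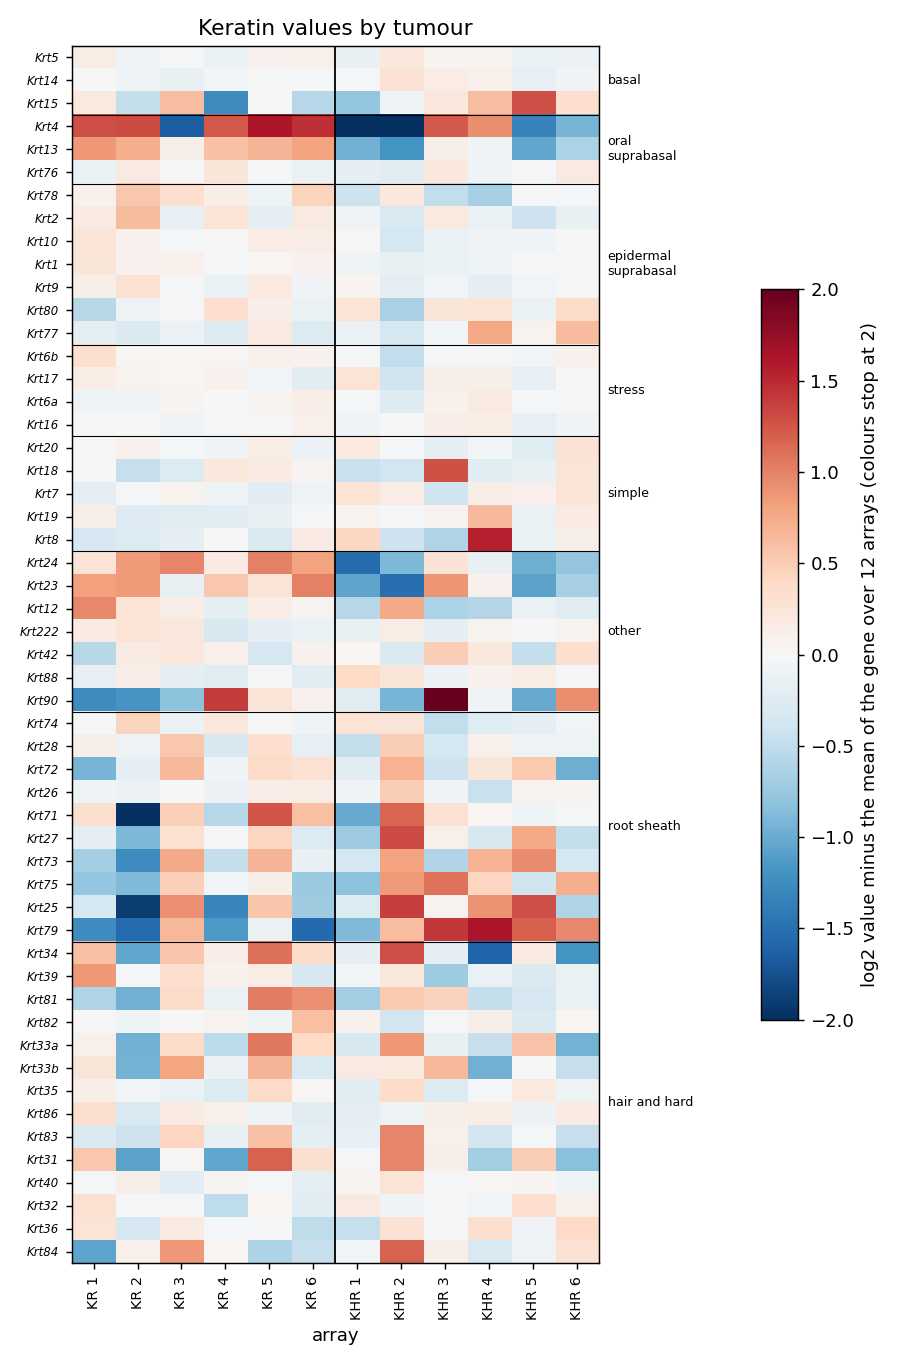
Rows are the 53 keratins by class, columns the 12 arrays, and the colour gives the log2 value minus the mean of that gene over the 12 arrays, with colours stopping at 2 in either direction. Krt4, Krt13, Krt24 and Krt23 are blue in KHR 1, KHR 2, KHR 5 and KHR 6, while most root sheath and hair keratins are red in KHR 2, KR 3 and KR 5 and blue in KR 2.

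The brightest keratins lay near the top of the arrays' scale, and there the size of a difference depended on the probeset read. Of the 53, 10 had a KR mean above the 99th percentile of gene levels, 11.56. These were Krt1, Krt4, Krt5, Krt6a, Krt6b, Krt10, Krt13, Krt14, Krt16 and Krt17. That percentile is of means over all 12 arrays, and the KHR means of Krt4 and Krt13, 9.83 and 11.52, were below it. Krt13 changed by -2.68 ± 0.36 (SE; adjusted p = 0.00441 over all probesets, limma) in its dimmest probeset, from 6.92 to 4.24, and by -1.17 in its brightest, at a KR mean of 14.13. The dimmest probeset of Krt10, at a KR mean of 10.14, differed by -0.77 ± 0.17 (adjusted p = 0.0512), while its 8 probesets at or above 12 had changes between -0.25 and -0.08. For Krt1 the dimmest probeset, at 10.96, differed by -0.86 ± 0.32 (adjusted p = 0.260), and 8 probesets at or above 12 by -0.40 to 0.01.

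Krt4 showed the same order, with a median change of -1.26 in 4 probesets at or above 12 and -1.97 in 5 below. Krt5 did not, since its dimmest probeset, at 10.28, differed by -0.06 ± 0.18 and its brightest by -0.10. In Krt14 the dimmest probeset, at 5.36, differed by 0.93 ± 0.26 (SE; adjusted p = 0.129), the next, at 10.12, by -0.53 ± 0.24 (adjusted p = 0.372), and its 5 probesets at or above 12 by -0.04 to 0.13. Of the stress keratins, Krt16 had a median change of -0.31 in 2 probesets below 12 and of 0.01 in 5 at or above, and the dimmest probeset of Krt6a, at 10.26, differed by -0.20 ± 0.23 (SE; adjusted p = 0.767). The deposited values carry no flag for saturated probes, and whether brightness limited the differences was not tested.

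**Figure D5:**
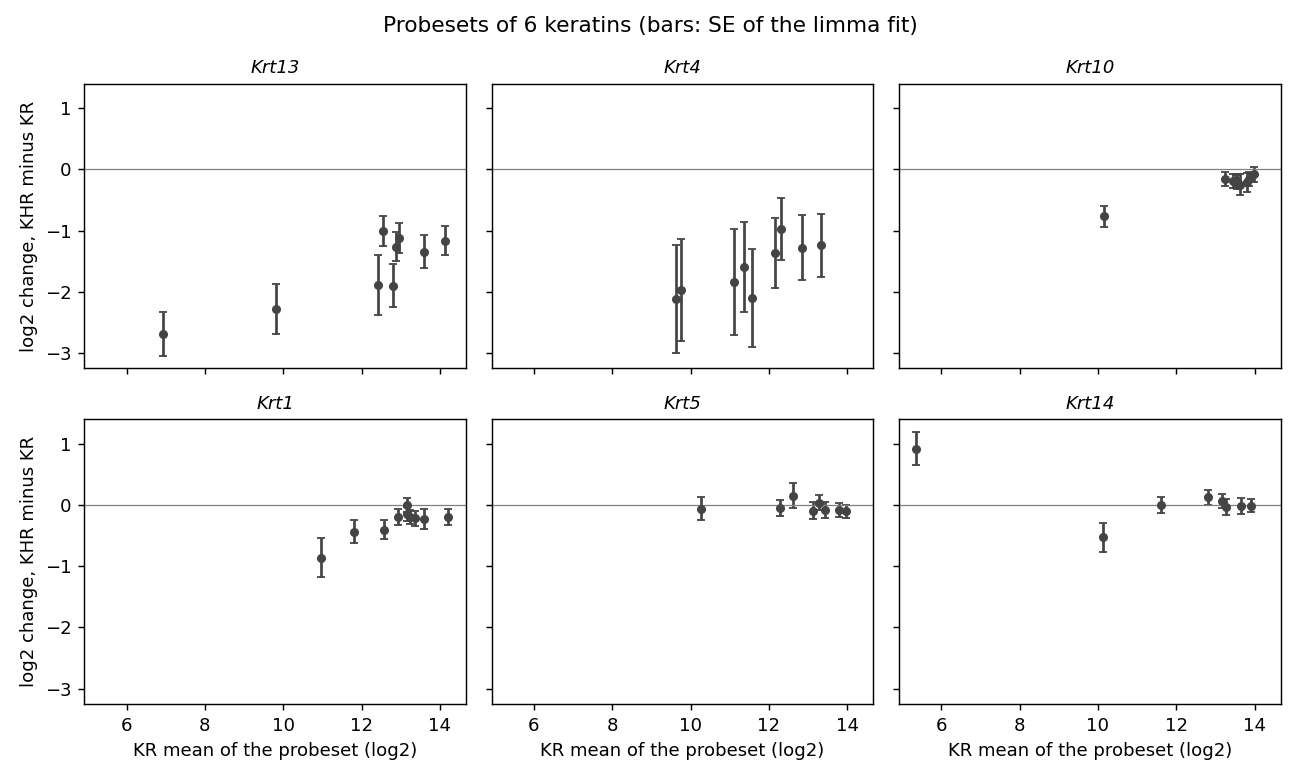
Each panel takes 1 keratin and plots for its probesets the log2 change, KHR minus KR (vertical axis), against the mean log2 intensity in KR tumours (horizontal axis); bars are the SE of the limma fit. In Krt13, Krt4, Krt10 and Krt1 the dimmest probeset has the largest fall, down to -2.68 in Krt13. Their other probesets keep no strict order of brightness, and those of Krt5 stay near 0.

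Other genes that build on keratin filaments moved in part. Desmosomes and hemidesmosomes anchor the filaments to the cell border, and of 23 measured genes 1 rose and 1 fell, beside 3.74% of all genes called. The change was below 0 for 18 of 23, beside 11319 of 23102 genes, with a median of -0.12, beside 0.00 for all genes. At an unadjusted p under 0.05, 6 were lower and 1 higher (30.4% of the 23, beside 15.9% of all genes). The lists of other genes here and below were chosen with earlier results of these data known, so their shares are no test. Evpl, envoplakin, named beyond the rule, just missed the threshold at -0.47 ± 0.12 (SE, adjusted p = 0.0505, limma) and passed in 8 of 13 other fits. Ppl, periplakin, which links keratin to the cornified envelope, fell by 0.42 ± 0.09 on the log2 scale (SE; adjusted p = 0.0204, limma; 0.0529 without KHR 4 and 0.0533 with the Xist level as a covariate). Dsg2, the desmosomal cadherin of simple and basal cells, rose by 0.37 ± 0.09 (adjusted p = 0.0329), a call that 7 of the 12 fits without 1 array did not make (adjusted p up to 0.0785; KHR 2, KHR 3, KHR 4, KR 1, KR 2, KR 3 or KR 5) and in 7 of 13 other fits.

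The cornified envelope replaces the cell membrane of dying squames and binds bundled keratin. Of 23 measured genes of the envelope and of keratin bundling, 3 rose and 4 fell, beside 2.71% and 1.03% of all genes, with a median change of -0.03. Sprr4 and Ivl, both envelope precursors, rose by 2.43 ± 0.39 and 1.59 ± 0.30 (SE; adjusted p = 0.00349 and 0.00960, limma), and Tchh, trichohyalin, which bundles keratin in the inner root sheath and in tongue papillae, by 1.07 ± 0.24 (adjusted p = 0.0237; lost without KR 1, KR 2, KR 3 or KHR 3, up to 0.0615). The value of Sprr4 rests on fewer than 3 probesets, and the filter on probeset number left it out. Sprr3, the envelope protein of oral and oesophageal lining, fell by 0.97 ± 0.23 (adjusted p = 0.0336) and Lor, loricrin, by 0.36 ± 0.09 (adjusted p = 0.0373). The crosslinking enzymes Tgm1 and Tgm3 fell by 0.46 ± 0.10 and 0.46 ± 0.11 (adjusted p = 0.0244 and 0.0265). These 4 calls were lost on leaving out any of 8 arrays for Sprr3 (all but KR 3, KHR 3, KHR 5 and KHR 6), 10 for Lor (all but KR 2 and KHR 6), 3 for Tgm1 (KR 5, KR 6 and KHR 4) and 5 for Tgm3 (KR 2, KR 4, KR 6, KHR 5 and KHR 6), with adjusted p up to 0.0662, 0.0809, 0.0572 and 0.0656. With the muscle mean or the Xist level as a covariate, all 4 lost their calls, as did Tchh; Sprr3, Lor and Tgm3 also lost theirs with the squamous covariate, Lor with the hair follicle covariate and with array weights, and Tgm1 with median polish.

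Among 28 measured regulators of keratin genes, 2 fell and none rose, beside 1.03% and 2.71% of all genes. The change was below 0 for 19, beside 11319 of 23102 genes, and its median was -0.20. At an unadjusted p under 0.05, 11 were lower and 1 higher (42.9% of the 28, beside 15.9% of all genes). This list too was chosen with earlier results of these data known, so its shares are no test. Pax9, a transcription factor of the oral lining, fell from 7.97 ± 0.55 to 6.11 ± 0.37 (SD, n = 6 each), a difference of -1.86 ± 0.24 (SE; adjusted p = 0.000873, limma), and the groups did not overlap. KHR 3, the tumour with the highest Krt13, Krt4, Krt24 and Krt23 of its group, also had the highest Pax9 of the KHR tumours. That is 1 tumour, and a relation of Pax9 to these keratins was not tested. Sox2, a stem cell factor of squamous epithelium, fell by 1.25 ± 0.30 (adjusted p = 0.0333), a call lost without any of KHR 5, KR 1, KR 5 or KR 6 (highest adjusted p = 0.0751) and with the muscle or the squamous covariate. Trp63 and Klf4, named beyond the rule as regulators of basal and upper layers, differed by 0.16 ± 0.11 and -0.28 ± 0.10 (adjusted p = 0.536 and 0.188).

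Means of 8 squamous markers were similar across the arrays, from 11.61 to 11.77 in KR and from 11.46 to 11.80 in KHR tumours. None of the 8 was called, and none was under the median over all genes. Perp, Dsp, Jup, Dsg3 and Pkp1 among them had means above 11.56, the 99th percentile of gene levels. Whether brightness limited their differences was not tested. Pkp1 did not overlap between the groups, beside 2.67% of all genes without overlap. It differed by -0.31 ± 0.09 (SE, adjusted p = 0.0689, limma) and passed in 3 of 13 other fits. Means of 20 skeletal muscle markers ran from 5.50 to 6.67 and from 5.48 to 7.79, with KHR 5 the highest. Fibroblast markers were highest in KR 3, at 9.51, the KR tumour with the lowest Krt4 and Krt13. Among KHR tumours they were highest in KHR 5, at 9.38, while KHR 1 had the lowest Krt4 and KHR 2 the lowest Krt13. Of 9 fibroblast markers 1, Col1a2, was called lower, beside 1.03% of all genes. Leukocyte markers (8) ran from 5.71 to 6.35 and from 6.04 to 6.45, with none called. In bulk tissue, fewer cells of a type and less RNA per cell cannot be told apart, and the part of these cell types in the keratin values was not tested. Krt13 and Krt24 kept their calls in all 13 other fits, which include muscle, squamous and hair follicle means and the Xist level as covariates, with changes of -1.63 to -1.16 and -1.43 to -1.32.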

How the data were processed

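Total RNA of 12 oral tumours was hybridised to Affymetrix Mouse Gene 2.0 ST arrays, 6 in each group. The authors deposited 1 value per probeset and array on the log2 scale of intensity, with Partek as the tool per the submitters' processing notes; background correction, normalization and version: not given in the sources used here. Array medians ran from 5.62 to 5.75, and array number limits the precision. Of 269751 probesets, 233753 had 1 gene symbol in the platform annotation, 5106 had several and 30892 none. Of the symbols, 2247 were updated through RefSeq synonyms (GRCm38.p6) and 30 could not be. A gene's value was the median log2 value of its probesets with 1 symbol, for 23102 genes. Krt83 can be an older name of Krt87 and is uncertain.

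KHR was compared with KR with limma 3.58.1 (R 4.3.3; lmFit and eBayes), with Benjamini-Hochberg adjustment over all genes and a threshold of 0.05. Intervals are 95% intervals of that fit. Pair correlations used exact two-sided permutation tests (scipy 1.17.1), adjusted over 14 relations. Scripts were tested on simulated data. The members and lists were chosen with earlier results of these data known. Keratins of the basal, oral, epidermal, stress and simple classes were all named; of the others, those past the threshold or with a change of at least 0.5, and of the lists of other genes, those past the threshold. Alternatives were 2 other summaries of probesets, 2 other scalings, 2 filters, 2 variants of limma, the replicate number as a block, Xist and muscle covariates, and leaving out each array. The squamous and hair follicle covariates were chosen after seeing the data. Both share members with the lists they adjust. The squamous markers hold Perp, Dsp, Dsg3, Pkp1 and Jup of the desmosome list and Trp63 of the regulators. The hair follicle markers hold Dsg4 of the desmosome list, Tchh and S100a3 of the envelope list, and Msx2, Hoxc13 and Foxn1 of the regulators.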

Additional observations from a re-analysis of the deposited data

Results flagged for a closer look

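Among 29 named keratins, the 6 values of each group were searched for a tumour far from the rest, in 58 groups of values, and 6 were found; chance gives about 1 in 20 such groups. In Krt4, KR 3 was the lowest KR tumour at 9.047, with the next at 11.926. In Krt6b, KR 1 was the highest KR tumour at 13.798, above the next at 13.584, and KHR 2 the lowest KHR tumour at 13.0, below the next at 13.425. Krt10 was also lowest in KHR 2, at 13.082, with the next at 13.303. Krt7 was lowest in KHR 3 at 3.496, with the next at 3.999, and Krt77 highest in KR 5 at 4.126, with the next at 3.819; both are dim genes. Leaving out KR 3 moved the change of Krt4 from -1.74 to -2.25 without a call (adjusted p = 0.0798, limma).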

How the results depend on the processing

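Krt13 and Krt24 were called in all 13 alternatives and all 12 fits without 1 array. The keratins called numbered 4 when probesets were averaged (the mean) and 4 with median polish, and 2 to 3 without 1 array, where Krt79 was added without KR 3 or KHR 1 and Krt23 without KHR 3. Of all genes, 863 in the report's fit, 1445 were called with the mean, 555 with the Xist level as a covariate, and 523 to 1085 without 1 array. Desmosome genes called numbered 5 with the mean, 4 with median polish, 0 with Xist, 1 with muscle and 1 with squamous covariates, and 0 to 3 without 1 array. The squamous mean holds Perp, Dsp, Dsg3, Pkp1 and Jup of this same list, so the fit removes part of the list's own variation by construction. Cornified envelope genes numbered 2 with Xist, 2 with muscle and 4 with squamous covariates, and 3 to 6 without 1 array. Regulators numbered 5 with the mean, 4 with median polish, 1 with muscle and 1 with squamous covariates, and 1 to 3 without 1 array. The cause of these shifts was not tested.

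Changes near 0 turned sign. With the squamous covariate, Krt6a was at 0.0030, Krt16 at 0.0127, Krt17 at 0.0676 and Krt20 at 0.0428; with muscle, Krt16 at 0.0135, Krt17 at 0.0397 and Krt20 at 0.0424; with Xist, Krt18 at -0.0257 and Krt20 at 0.0277; with array weights, Krt16 at 0.0092 and Krt20 at 0.0123. Krt17 was at 0.0531 with the mean and 0.0179 with median polish, and Krt76 at 0.0078 with median polish. Without 1 array the changes ran from -0.0631 to 0.0071 for Krt5, -0.0502 to 0.0368 for Krt6a, -0.0334 to 0.0302 for Krt16, -0.0814 to 0.0533 for Krt17, -0.1365 to 0.2075 for Krt18, -0.0746 to 0.0333 for Krt20, -0.0845 to 0.0046 for Krt76 and -0.0104 to 0.8313 for Krt90. With the mean, r turned to 0.445 for Krt6a with Krt17 and -0.487 for Krt8 with Krt18 in KR tumours, and to 0.081 for Krt8 with Krt18 in KHR tumours. With median polish it turned to 0.121 for Krt8 with Krt18 in KHR and 0.031 for Krt7 with Krt19 in KR tumours.

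Same-numbered tumours of the groups share only a number: their deviations correlated between -0.003 and 0.234, above 0.1 in 2 of 6 pairs, and 2 of 6 tumours correlated best with their own number. With the replicate number as a block, 925 genes and 3 keratins (Krt79 besides) were called. So were 2 desmosome genes (Evpl and Ppl, not Dsg2), 4 cornified envelope genes (Ivl, Sprr4, Tchh and Tgm3, not Lor, Sprr3 or Tgm1) and 3 regulators (Barx2, Notch1 and Pax9, not Sox2, adjusted p = 0.0859).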
